A study of Homo sapiens with 14 samples.

Results

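The HOX genes are described here across human H9 (WA-09) embryonic stem cells and in cultures taken from them along a midbrain dopamine neuron protocol. All gene entries named HOXA, HOXB, HOXC or HOXD followed by digits alone were taken, which gave 39 of the 57445 gene entries: 11 in cluster A, 10 in B, 9 in C and 9 in D. RNA-seq read counts came from 10 libraries, 2 per group. The groups were undifferentiated cells (hPSC, day 0) and day 11 cultures given 0.7, 3, 5 or 7.5 µM CHIR99021 from day 4. All 4 day 11 arms had shared a start in SHH C25II, LDN, SB431542, Rock inhibitor and 0.7 µM CHIR99021, lost SHH, LDN and SB431542 at day 7, and changed at day 10 to a neuronal medium with 3 µM CHIR99021. The last day of the raised concentration is day 9 in one record and day 10 in another. Another 4 libraries, 2 at day 16 and 2 at day 30 of the 7.5 µM protocol, are given at the end, since their counts came in another kind of table. For the earlier of these pairs the series' design text names day 20, and the sample labels, followed here, name day 16. CHIR99021 inhibits GSK3 and so switches on canonical WNT signalling, LDN blocks BMP receptors and SB431542 blocks TGFβ receptors. The series used a single cell line, and the labels do not say whether the 2 libraries of a group came from separate differentiations, so p-values measure the spread between these libraries.

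HOX genes encode homeodomain transcription factors that set position along the body from head to tail. They lie in 4 clusters, and the paralogue number follows a gene's place in its cluster: low numbers are switched on early and reach forward into the hindbrain, and high numbers are used in the trunk and tail. Forebrain and midbrain normally lack HOX expression, and WNT signals, CDX factors and retinoic acid are known to turn HOX genes on in tissue further back.

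The HOX clusters were close to silent in every group. Of the 39 genes, 11 had 0 counts in all 10 libraries: HOXA3, HOXA4, HOXA6, HOXB13, HOXC11, HOXC12, HOXD3, HOXD4, HOXD10, HOXD11 and HOXD12. Another 17 never exceeded 3 counts in a library, and they include HOXA2, the gene that reaches furthest forward in the hindbrain, which had 2 counts in 1 library of the 3 µM arm and 0 elsewhere. The remaining 11 exceeded 3 counts in at least 1 library, and only HOXB3, HOXB8, HOXB9 and HOXC4 exceeded 10 in any. The clearest HOX reads were in the 7.5 µM arm and came from part of cluster B.

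The depth behind these values was 20524827 to 44758969 reads on genes per library. A count of 0 in both libraries of a group allows up to 3 counts, a level of 0.041 CPM (counts-per-million of gene counts, after TMM scaling of library size) in the 7.5 µM arm and of 0.062 CPM in the 3 µM arm, for counting error only. Detected is used here for at least 10 counts in both libraries of a group. By that rule 0 HOX genes were detected in hPSC and at 0.7, 3 and 5 µM, and 3 at 7.5 µM: HOXB3, HOXB9 and HOXC4. The day 11 cultures expressed the floor plate list (FOXA2, LMX1A, CORIN and SHH), with a summed level of 103 to 636 CPM against 0.73 to 1.16 CPM in hPSC. Between 7.5 and 0.7 µM, edgeR with the replicate number as a block called 2 of these 4 lower, CORIN and SHH. The median log2 difference of the 4 was −1.47, and 4.87% of all genes were called lower. Of the neural progenitor list (SOX1, SOX2, PAX6 and NES) it called 1 of 4 lower, PAX6, from 11.5 and 8.40 to 0.19 and 0.60 CPM. Without the block 0 of either list were called. In bulk RNA, fewer cells expressing a HOX gene and less RNA per cell cannot be told apart.

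Promoter sequence is shown for 3 starts: HOXA2, which had 2 counts over all 10 libraries up to day 11 and reads at day 16; HOXC4, whose start is listed also for HOXC5; and HOXB1, a WNT- and retinoid-responsive hindbrain gene in the cluster that gave most reads. Each run is the 250 bases before the start, 5′ to 3′ on the gene's strand, from RefSeq on GRCh38.p14. HOXA2 is at chr7:27102684-27102933 (minus strand), HOXC4 at chr12:54016638-54016887 (plus strand) and HOXB1 at chr17:48531012-48531261 (minus strand). Capitals mark matches to the letters TGATNNAT (a PBX-HOX form, whose reverse complement is ATNNATCA) or CTTTGA (a TCF/LEF form).
HOXA2: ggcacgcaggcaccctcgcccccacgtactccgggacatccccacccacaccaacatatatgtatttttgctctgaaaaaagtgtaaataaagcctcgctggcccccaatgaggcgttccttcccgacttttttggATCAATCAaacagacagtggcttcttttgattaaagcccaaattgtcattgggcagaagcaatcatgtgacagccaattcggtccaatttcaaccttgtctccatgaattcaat
HOXC4: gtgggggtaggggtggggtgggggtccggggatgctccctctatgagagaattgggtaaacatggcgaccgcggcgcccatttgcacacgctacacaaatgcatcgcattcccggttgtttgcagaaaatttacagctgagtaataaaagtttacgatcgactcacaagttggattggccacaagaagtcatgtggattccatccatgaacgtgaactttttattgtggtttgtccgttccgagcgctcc
HOXB1: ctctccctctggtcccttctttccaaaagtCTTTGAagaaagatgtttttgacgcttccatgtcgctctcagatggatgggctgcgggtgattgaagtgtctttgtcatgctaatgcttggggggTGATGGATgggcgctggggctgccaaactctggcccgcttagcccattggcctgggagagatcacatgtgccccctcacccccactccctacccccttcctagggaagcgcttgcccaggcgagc
HOXA2 holds the PBX-HOX letters 114 bases before its start, and HOXB1 holds the TCF/LEF letters at 220 and the PBX-HOX letters at 125 bases before its start. The HOXC4 window holds none of the letters searched. The RefSeq table held starts for 20 of the 39 genes, 27 starts in all. Over these, TTTATG (CDX) was in 3, CTTTGA in 3, TGATNNAT in 3 and AGGTCA (the core of a retinoic acid receptor site) in 0, searched on both strands, with a site for one motif free to overlap another. The same letters were in 9.64%, 11.2%, 6.47% and 12.1% of all 35116 listed starts. The CDX letters were in starts of HOXA3, HOXA9 and HOXD8, the TCF/LEF letters in HOXA10, HOXB1 and HOXD12, and the PBX-HOX letters in HOXA2, HOXB1 and HOXD11. No start is listed for HOXB3, HOXB4, HOXB8 or HOXB9. A match is a description of letters in these windows.

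By cluster, HOXB carried most of the reads at 7.5 µM, 94 of 133 and 41 of 80, and most of that arm's difference from the others. It did not hold most reads in the lower arms, with 3 of 18 and 1 of 12 at 3 µM. HOXB genes summed to 2 and 0 counts in the 2 hPSC libraries, 5 and 5 at 0.7 µM, 3 and 1 at 3 µM, 7 and 9 at 5 µM, and 94 and 41 at 7.5 µM. Both 7.5 µM libraries thus stood above the other 8, at 2.57 and 1.12 CPM for the whole cluster against at most 0.41 CPM elsewhere. Replicate 1 of that arm held more than replicate 2. HOXA had 0 to 5 counts in every library except replicate 2 at 7.5 µM, which had 10. HOXC had 24 and 17 counts at 7.5 µM and 1 to 8 elsewhere, and most were HOXC4 reads. HOXD had 0 counts in hPSC and 1 to 12 across day 11, where the 7.5 µM libraries had 10 and 12 and replicate 2 at 5 µM had 9. The 29 genes outside cluster B summed to 39 counts in each 7.5 µM library, 1.07 and 1.06 CPM, against 0.27 to 0.74 CPM in the other day 11 libraries.

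**Figure D1:**
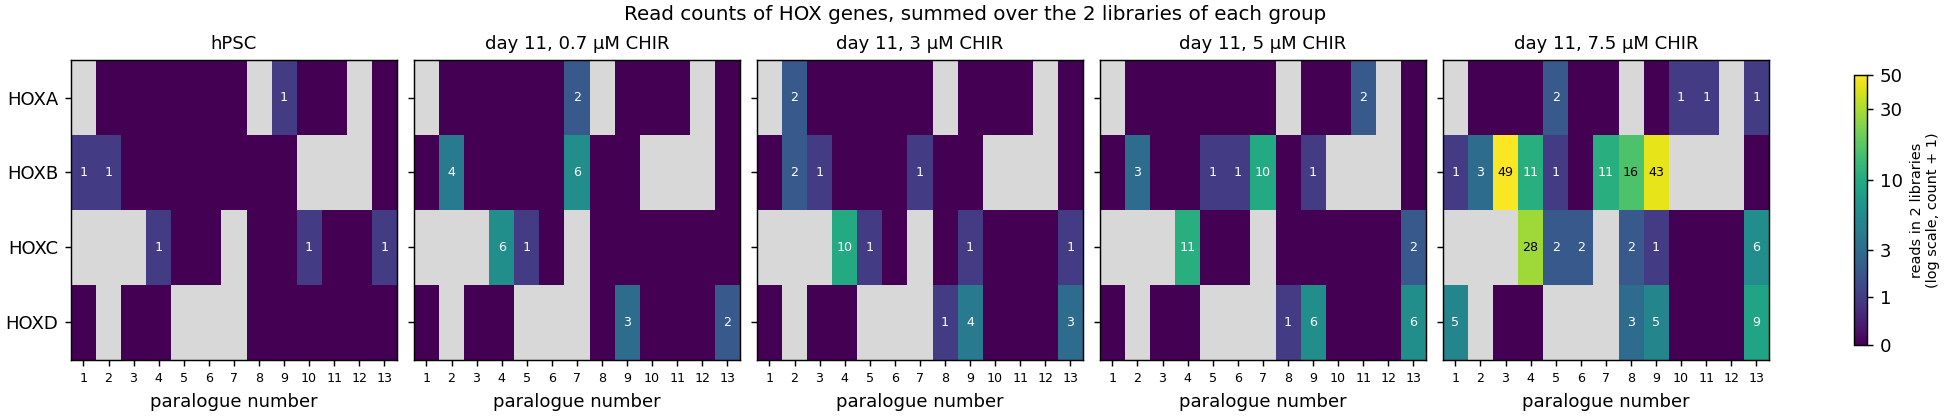
Reads of each HOX gene, summed over the 2 libraries of a group, by cluster (rows) and paralogue number (columns), on a log colour scale; grey cells are positions with no gene or with a gene not shown. HOXB3 with 49 and HOXB9 with 43 reads at 7.5 µM are the brightest cells, and all other panels stay at 11 or below.

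**Figure D2:**
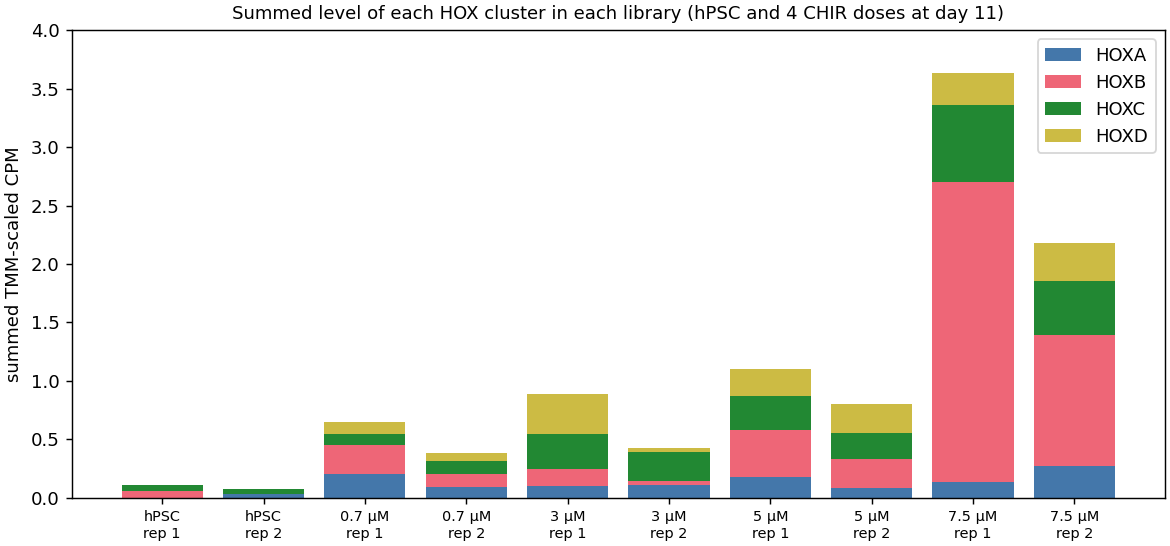
Summed TMM-scaled CPM of each cluster in each of the 10 libraries, stacked. The 7.5 µM libraries reach 3.63 and 2.18 CPM for all 39 genes and the other 8 stay at or below 1.10 CPM.

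By paralogue number, reads at 7.5 µM were not confined to the anterior genes. Groups 3 and 9 each had 49 counts over the 2 libraries, from 49 of HOXB3 in the first and 43 of HOXB9 in the second. Group 4 had 39 counts, 28 of them from HOXC4 and 11 from HOXB4, and group 8 had 21, of which HOXB8 gave 16. Group 13 had 16 counts, groups 5, 6 and 2 had 5, 2 and 3, and group 7 had 11, all from HOXB7. Groups 10 and 11 had 1 count each and group 12 had 0 in every library. At 0.7 µM no group exceeded 8 counts, at 3 µM none exceeded 10 and at 5 µM none exceeded 11. Within cluster B the reads at 7.5 µM skipped genes: HOXB3 and HOXB4 had reads, HOXB5 and HOXB6 had 1 and 0, and HOXB7, HOXB8 and HOXB9 had reads again. HOXB1, HOXB2 and HOXB13 had 1, 3 and 0. HOXB7 also had 10 counts at 5 µM and 6 at 0.7 µM. In GENCODE 29, 32.9% of HOXB6's exonic bases and 3.58% of HOXB5's lie also in another gene, where reads can be lost as ambiguous.

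HOXB3, which patterns the posterior hindbrain, had 0 counts in both hPSC libraries, both 0.7 µM and both 5 µM libraries, 1 and 0 at 3 µM, and 37 and 12 at 7.5 µM. That is 1.01 and 0.33 CPM at 7.5 µM, above all other libraries, and replicate 1 was the higher of the pair. Against the limit of 3 counts over a group, the 7.5 µM level was at least 14.5-fold higher than at 0.7 µM, at least 11.9-fold higher than at 5 µM and at least 14.2-fold higher than in hPSC. These limits rest mainly on replicate 1: from replicate 2 alone they were at least 7.08-fold, 5.82-fold and 6.96-fold higher, and from replicate 1 alone 21.9-fold, 18.0-fold and 21.5-fold. Against 3 µM the ratio was 32.3, with a 95% counting interval of 5.53 to 1301.

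HOXB9, a trunk gene near the far end of the cluster, had 0 counts in hPSC, at 0.7 µM and at 3 µM, 0 and 1 at 5 µM, and 29 and 14 at 7.5 µM. Its level at 7.5 µM was 0.79 and 0.38 CPM, and no other library overlapped it. The level was at least 12.7-fold higher than at 0.7 µM, at least 9.44-fold higher than at 3 µM and at least 12.5-fold higher than in hPSC, and the ratio to 5 µM was 31.3 (95% counting interval 5.33 to 1266). From replicate 2 alone the limits were at least 8.26-fold, 6.14-fold and 8.12-fold higher. No annotated gene shares exonic bases with HOXB9 or HOXB8 in GENCODE 29, whereas 13.2% of HOXB3's exonic bases lie also in another gene (HOXB4 and HOXB6 on its strand, HOXB-AS1 and HOXB-AS3 on the other).

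The other genes described one by one, HOXB4, HOXB7, HOXB8 and HOXC4, and the sparse genes after them, were chosen after their values were seen. HOXB8, also a trunk gene, had 0 counts in the other 8 libraries and 14 and 2 at 7.5 µM, so its reads rest mainly on replicate 1. HOXB4, a hindbrain and spinal cord gene, had 0 counts in the other 8 libraries and 7 and 4 at 7.5 µM. Both were above the limit in that arm, at least 4.73-fold and at least 3.25-fold higher than at 0.7 µM. From replicate 2 alone HOXB4 was at least 2.36-fold higher, and HOXB8, with 2 counts, was under the limit. HOXB7 did not follow them: it had 4 and 2 counts at 0.7 µM, 0 and 1 at 3 µM, 4 and 6 at 5 µM and 5 and 6 at 7.5 µM, with 0 in hPSC. Its ratio of 7.5 to 5 µM was 0.80 (95% counting interval 0.31 to 2.10).

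HOXC4, a neck-level gene of the spinal cord, had reads in every day 11 library. It had 1 and 0 counts in hPSC, 2 and 4 at 0.7 µM, 5 and 5 at 3 µM, 5 and 6 at 5 µM and 14 and 14 at 7.5 µM. The 7.5 µM libraries, both at 0.38 CPM, lay above the 0.09 to 0.29 CPM of the other day 11 libraries. The ratio to 0.7 µM was 4.14 (95% counting interval 1.68 to 12.2), to 5 µM 1.85 (0.90 to 4.13) and to hPSC 24.4 (4.03 to 997). In GENCODE 29, 17.8% of HOXC4's exonic bases lie also in HOXC5 or HOXC6. Reads ambiguous between genes were counted apart, so this overlap can lower the HOXC4 count. HOXC5 and HOXC6 had 2 counts each at 7.5 µM.

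**Figure D3:**
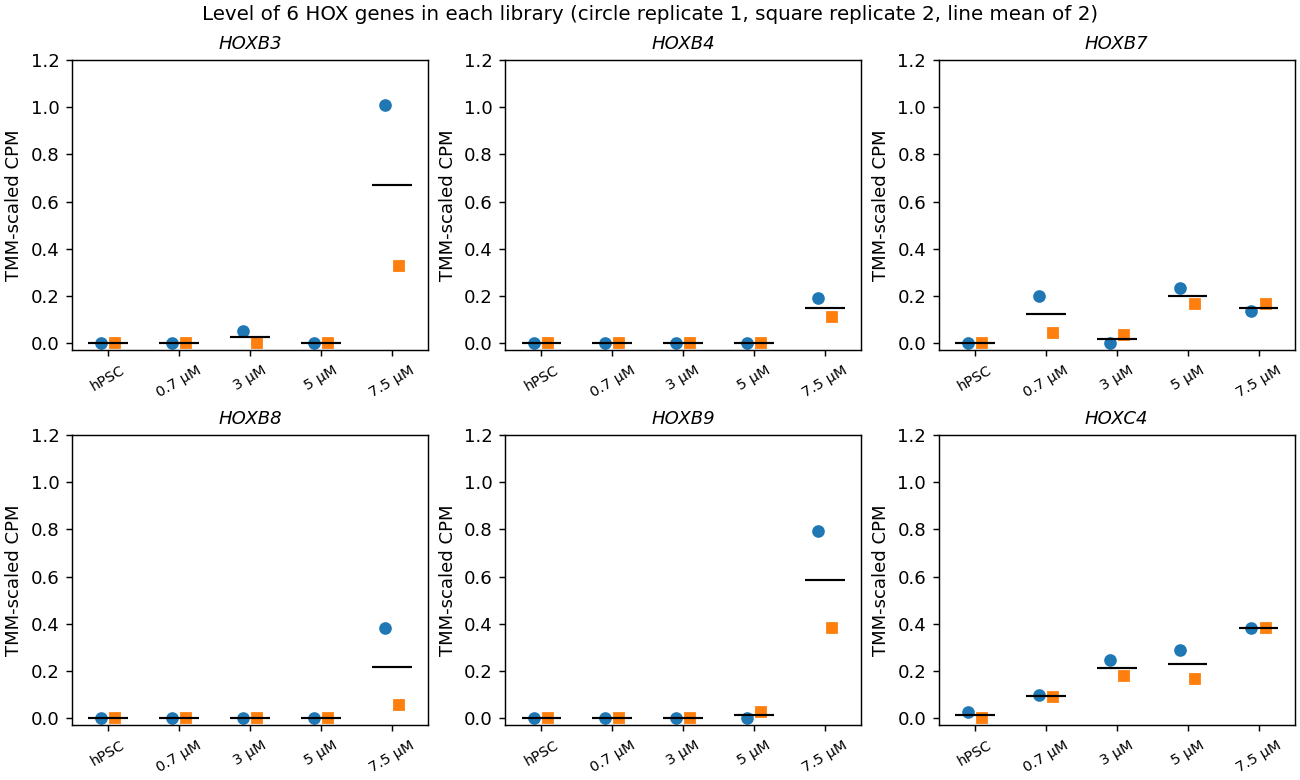
TMM-scaled CPM of 6 HOX genes in each library by group; circles are replicate 1, squares replicate 2, lines the mean of both. HOXB3, HOXB4, HOXB8 and HOXB9 sit at or near 0 until 7.5 µM, HOXB7 shows no such step, and HOXC4 reads 0.38 CPM in both 7.5 µM libraries.

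The other genes described here were sparse and mostly unsteady between replicates. HOXD1 had its 1 and 4 counts at 7.5 µM. HOXD9 had 2 and 1, 4 and 0, 1 and 5, and 1 and 4 counts in the 4 arms from the lowest to the highest concentration. HOXD13, a gene of the far end of its cluster used in limb and genital buds, had 0 and 2, 2 and 1, 3 and 3, and 8 and 1, with a 7.5 to 0.7 µM ratio whose interval ran from 0.83 to 37.9. HOXC13 had 5 and 1 counts at 7.5 µM. The 39 genes together summed to 4 and 2 counts in hPSC, and 2 to 4 of them had a count there, against 6 to 10 in the libraries at 0.7 to 5 µM and 17 to 18 at 7.5 µM. Of all 57445 gene entries, 25655 and 25220 had a count in hPSC, 23122 to 25119 at 0.7 to 5 µM and 26217 and 25742 at 7.5 µM.

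Compared as CPM per kilobase of exon (GENCODE 29 lengths), the level at 7.5 µM was 0.31 and 0.15 for HOXB9, 0.19 and 0.027 for HOXB8, 0.14 and 0.14 for HOXC4 and 0.14 and 0.044 for HOXB3. On the same scale CDX2, a caudal regulator of HOX genes, was at 2.64 and 2.24, and OTX2, a forebrain and midbrain gene, at 96.5 and 90.7.

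The slope per doubling of CHIR99021 and the arm comparisons ask whether any HOX gene changed beyond the spread of the replicates. The filter on low counts kept 3 of the 39 genes, HOXB3, HOXB9 and HOXC4, each of which passed through its 7.5 µM reads. Under edgeR's quasi-likelihood test with Benjamini-Hochberg adjustment over all 18709 genes tested, 0 of the 3 passed the threshold in the slope. Background was 0.0802% of genes called higher. HOXB9 was nearest, at an adjusted p of 0.0537, HOXB3 had 0.269 and HOXC4 0.639, and all 3 had an unadjusted p under 0.05. So did 1106 of all 18709 genes. With no filter 7 of 26 HOX genes and 1797 of 31799 genes had an unadjusted p under 0.05. DESeq2 called 0 as well (background 0.598%), but 23 of the 26 HOX genes it fitted had no adjusted p and could not be called. DESeq2 with the replicate block called 0 of the 26, with 0 at unadjusted p under 0.05 and no adjusted p for 21 of them (background 1.28%). With the replicate number as a block, HOXB9 passed edgeR's slope test (adjusted p of 0.0187, background 0.722%), and HOXB3 did not (0.0683). That call was lost without replicate 1 of the 0.7 µM arm, replicate 2 of the 5 µM arm or either 7.5 µM library. Leaving the filter off called HOXB9 without the block (0.0466, background 0.0503%), and called HOXB3 and HOXB9 with it (background 0.767%).

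Between 7.5 and 0.7 µM, the edgeR test without the block called 0 of the 3 genes, and 0 of all 18709 genes called higher (background 0.0%). HOXB9 had an adjusted p of 0.318, HOXB3 0.365 and HOXC4 0.513, and all 3 had an unadjusted p under 0.05. So did 1641 of all 18709 genes, and these 3 were kept by the filter through their 7.5 µM reads. With no filter 4 of 26 HOX genes and 1738 of 31799 genes had an unadjusted p under 0.05. DESeq2 called 0 (background 0.859%) and gave no adjusted p for any of the 26 HOX genes it fitted. With the replicate block, edgeR called HOXB3 (0.0178) and HOXB9 (0.0212) higher at 7.5 µM, where the background was 5.64% of genes. DESeq2 with the same block called 0 of 26, where 1, HOXB9, had an unadjusted p under 0.05, all 26 lacked an adjusted p and the background was 4.36%. HOXC4 was not called there (log2 difference 1.96, SE 0.73, adjusted p of 0.110). The HOXB3 and HOXB9 calls were lost without either 0.7 µM library or without replicate 1 of the 7.5 µM arm, which leaves 0 called. Between 7.5 and 5 µM 0 of 3 was called without the block (background 0.0%). There 2 of 3 had an unadjusted p under 0.05, as did 1168 of all 18709 genes. With the block HOXB3 was called (0.036) and HOXB9 had 0.0525, against a background of 3.22%, while DESeq2 with the block called 0 (HOXB9 alone at unadjusted p under 0.05, all 26 without an adjusted p, background 4.0%). That call was lost without either 5 µM library or without replicate 1 at 7.5 µM. Between 5 and 0.7 µM, and between 3 and 0.7 µM, edgeR called 0 HOX genes with or without the block, and 0 of 3 had an unadjusted p under 0.05 in either. The background with the block was 0.706% for 5 µM and 0.016% for 3 µM, and 0.0% for both without it. DESeq2 also called 0 for 5 µM (background 0.226%) and 3 µM (0.0314%) against 0.7 µM, and for 7.5 against 5 µM (0.192%). It gave no adjusted p for 23, 26 and 24 of the 26 HOX genes there, so those could not be called. With the block it called 0 for 5 µM (0.931%) and 3 µM (0.274%) against 0.7 µM, with 0 HOX genes at unadjusted p under 0.05. There 25 and 26 of the 26 lacked an adjusted p. Leaving the filter off kept the calls with the block at HOXB3 and HOXB9 for 7.5 against 0.7 µM (background 5.62%, and 0 called without the block at 0.066%) and gave HOXB3 and HOXB9 for 7.5 against 5 µM (5.3%, and 0 called without the block). It called 0 HOX genes for 5 against 0.7 µM (0.0189% without and 1.25% with the block) and for 3 against 0.7 µM (0.5% with the block). At this depth no HOX difference of those 2 arms from 0.7 µM was detectable.

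The fit with hPSC again kept 3 HOX genes, HOXB3, HOXB9 and HOXC4, each through its 7.5 µM reads. Calls of higher at 7.5 µM among them are therefore not independent of the filter. Against hPSC, the 7.5 µM arm had 1 of the 3 called higher without the block, HOXC4 (log2 difference 4.31, SE 0.95, edgeR adjusted p of 0.0284, higher in 2 of 2 libraries), with a background of 4.35%. That call was lost without any one of the 4 libraries of the 2 groups compared (adjusted p 0.109 to 0.210). HOXB9 had 0.0505 and HOXB3 0.0731. With the block set within day 11 all 3 were called (0.0038 for HOXB9, 0.0031 for HOXB3 and 0.0039 for HOXC4), with a background of 16.6%. In that blocked fit only HOXC4 was called without replicate 1 of the 7.5 µM arm, HOXB3 was lost without replicate 2, and HOXC4 was lost without replicate 2 of hPSC. Leaving out either 0.7 µM library added HOXB9 to HOXC4 in the fit without the block. With no filter HOXB3, HOXB9 and HOXC4 were called without the block (background 2.63%), and HOXB7 as well with it (10.8%). The 0.7 µM arm against hPSC had 0 called with or without the block, where the background was 5.31% without it and 21.0% with it. With no filter 0 were called either, at 3.19% and 13.1%. HOXC4 there had a log2 difference of 2.33, SE 1.04 and edgeR adjusted p of 0.185, and 0 of the 3 had an unadjusted p under 0.05. DESeq2 called 0 in that comparison (background 6.43%) and HOXC4 alone at 7.5 µM (4.52%), with no adjusted p for 25 and 24 of the 28 HOX genes. With the block within day 11 DESeq2 again called 0 (12.6%) and HOXC4 alone (adjusted p of 0.0355, background 9.59%), so it did not call HOXB3 or HOXB9. In both of these blocked comparisons 22 of the 28 had no adjusted p.

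A count that needs no filter is how many genes lie higher in both 7.5 µM libraries than in the other 6 day 11 libraries. Of the 26 HOX genes with a day 11 read, 7 did so, HOXB3, HOXB4, HOXB8, HOXB9, HOXC4, HOXC6 and HOXD1. Of the 31799 genes with a read in these libraries 9.71% lay above. Of the 7, HOXC6 rests on 1 count in each 7.5 µM library.

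The known regulators of HOX genes were read beside these values. The list of caudal regulators has 11 genes, of which 8 passed the filter. T (brachyury, made in the tail bud and early mesoderm), WNT3A and CDX2 rose in the slope test without the block, and 0 fell (edgeR adjusted p of 0.0429 for each). Of all 18709 genes in that slope test, 15 were called higher (0.0802%) and 10 lower. Between 7.5 and 0.7 µM CDX2, T, WNT3A and MNX1 rose with the block, 4 of the 8, and without it 0 passed. Over all genes tested in that blocked fit, 5.64% were called higher and 4.87% lower, and these shares stand behind each list count with the block. CDX2, which switches on trunk HOX genes, had 0 CPM in both 0.7 µM libraries, 2.13 and 0.53 at 3 µM, 12.1 and 4.07 at 5 µM and 10.9 and 9.24 at 7.5 µM. T had 0.050 and 0 CPM at 0.7 µM, 0.049 and 0.78 at 3 µM, 3.59 and 6.59 at 5 µM and 10.5 and 18.9 at 7.5 µM. So CDX2 and T had reads at 5 µM, where HOXB3, HOXB4 and HOXB8 had 0 counts, HOXB9 had 1, HOXB7 had 10 and HOXC4 had 11. Whether these regulators and the HOX genes respond at different concentrations was not tested. The median log2 difference of the 8 genes between 7.5 and 0.7 µM was 3.51 with the block, and 0.07 over all genes tested. CDX1, at most 0.83 CPM in any library, did not pass (3.04, SE 0.99, adjusted p of 0.0771 with the block), and CDX4 had 1.90 and 1.85 CPM in hPSC and 0 at 5 and 7.5 µM. GBX2, which marks the anterior hindbrain, had 11.7 and 3.37 CPM in hPSC and at most 0.95 at day 11.

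**Figure D4:**
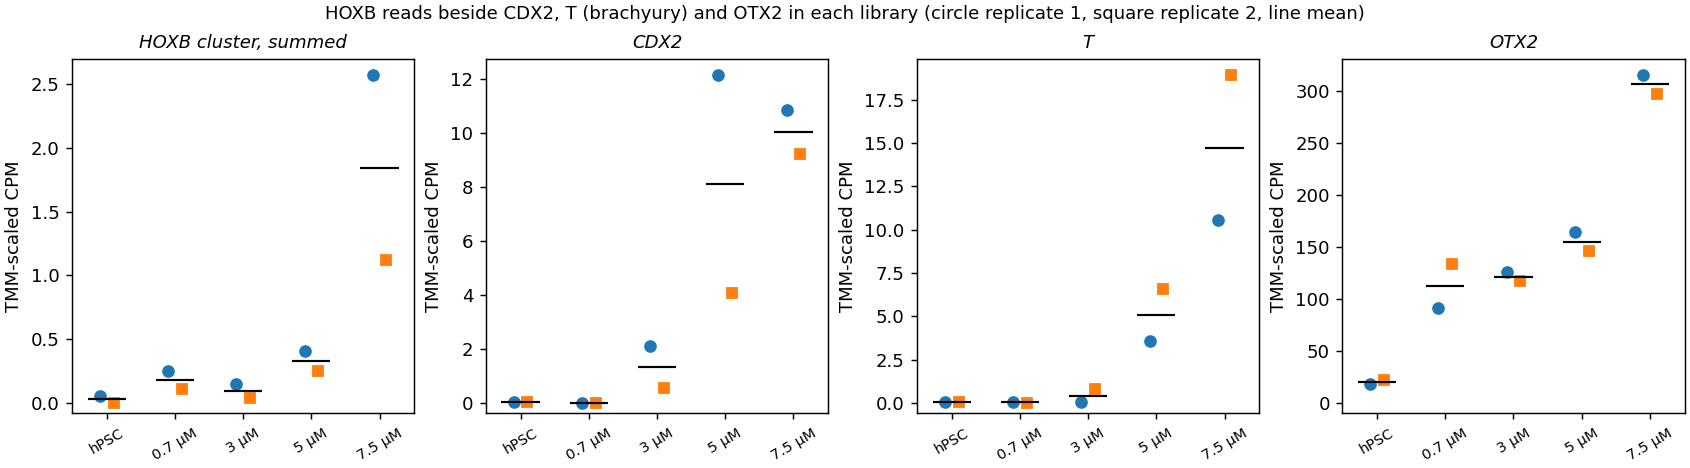
TMM-scaled CPM per library of the summed HOXB cluster, CDX2, T and OTX2, each panel on its own linear scale; circles are replicate 1, squares replicate 2, lines the mean of both. CDX2 and T are above their 0.7 µM level at 5 µM, while the HOXB sum stays at or below 0.41 CPM until 7.5 µM.

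Of the 9 HOX cofactors (PBX and MEIS families and kin, which bind DNA with HOX proteins), all were tested and 1 rose and 1 fell between 7.5 and 0.7 µM with the block, while 0 passed without it. That is 1 of 9 in each direction, beside 5.64% and 4.87% of all genes. MEIS2 rose from 13.1 and 20.5 CPM to 35.6 and 45.8 (log2 1.31, SE 0.25, edgeR adjusted p of 0.0113), and MEIS3 fell by 1.77 on the log2 scale (SE 0.41, 0.0239). MEIS1 was at 1.69 and 6.80 CPM at 0.7 µM and 2.08 and 1.74 at 7.5 µM, not past the threshold. The median of the 9 was −0.44, against 0.07 over all genes tested.

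The hindbrain list of 10 genes had 7 tested and 0 passed in either direction between 7.5 and 0.7 µM, with or without the block. EGR2, which marks rhombomeres and regulates HOXB2 and HOXA2 there, lay between 1.24 and 4.74 CPM in the 8 day 11 libraries. Of the 16 retinoic acid genes 14 were tested and, with the block, 1 rose (ALDH1A3, a retinoic acid synthetic enzyme) and 2 fell (CRABP1 and CRABP2, which bind retinoic acid in the cytoplasm), against 0 without it, beside 5.64% of all genes higher and 4.87% lower. The median of the 14 was −0.30 on the log2 scale with the block, against 0.07 over all genes. CRABP1 went from 1656 and 845 CPM at 0.7 µM to 169 and 174 at 7.5 µM. CYP26A1, which degrades retinoic acid, was at 3.58 and 4.28 CPM in hPSC and at most 0.70 at day 11. In the anterior neural list, 7 of 10 were tested and 4 rose and 1 fell with the block (5.64% and 4.87% of all genes), with a median log2 difference of 0.96. EN2, EN1 and OTX2 were among the higher ones and SIX3, a forebrain gene, was lower. OTX2 rose from 90.9 and 134 CPM at 0.7 µM to 316 and 297 at 7.5 µM (log2 1.45, SE 0.26, edgeR adjusted p of 0.0091 with the block and 0.307 without).

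Of the 14 chromatin regulators of HOX clusters, all tested, 0 rose and 2 fell with the block, CBX7 and EZH1, and 0 passed without it. Of all genes 5.64% rose and 4.87% fell in that fit, and the median of the 14 was 0.37, against 0.07. The 14 genes beside the clusters had 9 tested, of which TTLL6 fell with the block and 0 passed without it, 1 of 9 beside 4.87% of all genes. Of 24 noncoding entries inside the clusters, the 6 microRNA hairpins (MIR10A, MIR10B, MIR196A1, MIR196A2, MIR196B and MIR615) had 0 counts in all 10 libraries. HOTAIRM1, a noncoding RNA of the HOXA cluster, had 0 counts in hPSC, 9 and 5 at 0.7 µM, 6 and 9 at 3 µM, 3 and 3 at 5 µM and 3 and 4 at 7.5 µM, so it was not highest where the HOXB reads were. HOXD-AS1 had 0 and 16 counts at 7.5 µM and 1 and 5 at 5 µM. HOTTIP and HOTAIR had 0 counts in the 10 libraries.

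Markers of other cells were read in the same arms, and with the replicate block 5.64% of all genes were called higher and 4.87% lower. The mesoderm and somite list of 8 genes summed to 1.16 to 1.84 CPM at 0.7 µM and 11.6 to 21.1 at 7.5 µM, but T, which is in the caudal list too, supplied 10.5 and 18.9 CPM of the latter. Without T the sum was 1.16 to 1.79 CPM at 0.7 µM, 1.53 to 3.02 at 3 µM, 2.26 to 2.57 at 5 µM and 1.04 to 2.18 at 7.5 µM, so the arms overlapped. T was the only gene of 6 tested that passed with the block, and TBX6, which specifies paraxial mesoderm, had 0.75 and 0.58 CPM at 0.7 µM and 0.27 and 0.38 at 7.5 µM (adjusted p of 0.257 with edgeR and the block). The endoderm and gut list of 7 genes summed to 5.06 to 6.62 CPM at 0.7 µM and 11.7 to 12.8 at 7.5 µM, of which CDX2, shared with the caudal list, was 10.9 and 9.24. Without CDX2 its sum was 1.88 to 2.42 CPM at 7.5 µM, below 0.7 µM, with SOX17 at 0 there. Of its 3 tested genes CDX2 rose and FOXA3, a gut and liver factor, fell from 5.72 and 4.81 to 1.48 and 2.12 CPM with the block (log2 −1.52, SE 0.40, edgeR adjusted p of 0.0406), and 0 passed without it.

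In the mesenchyme and vessel list, 6 of 7 genes were tested and 2 rose and 1 fell with the block, against 0 without it. COL1A1, a fibrillar collagen chain, rose by a log2 difference of 1.94 (edgeR adjusted p of 0.0264) and PDGFRB, a pericyte and fibroblast receptor, went from 6.67 and 6.22 to 12.5 and 29.04 CPM (0.0398). LUM, a matrix proteoglycan, fell by 1.71 on the log2 scale (0.019). The summed list overlapped between the arms, at 56.0 to 294 CPM at 0.7 µM and 73.4 to 295 at 7.5 µM. The neural crest list of 7 summed to 72.9 to 90.9 CPM at 0.7 µM and 26.5 to 37.8 at 7.5 µM. Of its 4 tested genes 1 rose and 1 fell with the block, against 0 without it. TFAP2B, an early crest factor, rose by a log2 difference of 2.87 (edgeR adjusted p of 0.026 with the block). TFAP2B had 0.050 and 0.33 CPM at 0.7 µM and 0.25 and 3.13 at 7.5 µM, so the 7.5 µM libraries lay far apart and replicate 1 lay below replicate 2 of the 0.7 µM arm. The part of these cells in the HOX reads was not tested.

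The day 16 and day 30 tables are read side by side with day 11 only, since they hold another set of 57820 gene entries and fewer reads, 5406488 to 6336374 per library. The protocol also replated the cultures at day 11 and at day 16. Time, replating and counting cannot be told apart. The HOXB reads of day 11 did not appear in them: HOXB4, HOXB7, HOXB8 and HOXB9 had 0 counts at day 16 and day 30, and HOXB3 had 1 and 0 and 0 and 1. In CPM of gene counts, without TMM scaling and across tables normalized separately, HOXB9 was at least 2.56-fold lower at day 16 than at day 11, and HOXB3 was 0.11 times its day 11 level (95% counting interval 0.0028 to 0.67). For HOXB4, HOXB7 and HOXB8 the limit at day 16 and at day 30 is too high to separate them from day 11. HOXC4 had 1 count over day 16 and 0 at day 30. Its day 16 level was 0.20 times that of day 11, with a 95% counting interval of 0.0049 to 1.21 that includes no change. At day 30 it was at least 1.58-fold lower.

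HOXA2 had its reads in the later tables. It had 0 counts in both 7.5 µM libraries at day 11, 33 and 26 at day 16 and 8 and 17 at day 30. On that CPM scale this is 5.21 and 4.81 at day 16 and 1.41 and 3.11 at day 30, at least 110-fold and at least 49.3-fold above the day 11 limit, across tables. HOTAIRM1, its neighbour, had 3 and 4 counts at day 11, 53 and 39 at day 16 and 15 and 41 at day 30. Of the 39 genes, 33 were at 0 at day 16 and 31 at day 30. Within the later tables HOXA2 did not differ between day 30 and day 16 past the threshold (log2 −1.02, SE 0.78, edgeR adjusted p of 0.469, and 0.686 with the block), and neither did HOTAIRM1 (log2 −0.49, SE 0.75, adjusted p of 0.747), where 11.0% of genes were called in either direction, and 6.91% with the block.

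**Figure D5:**
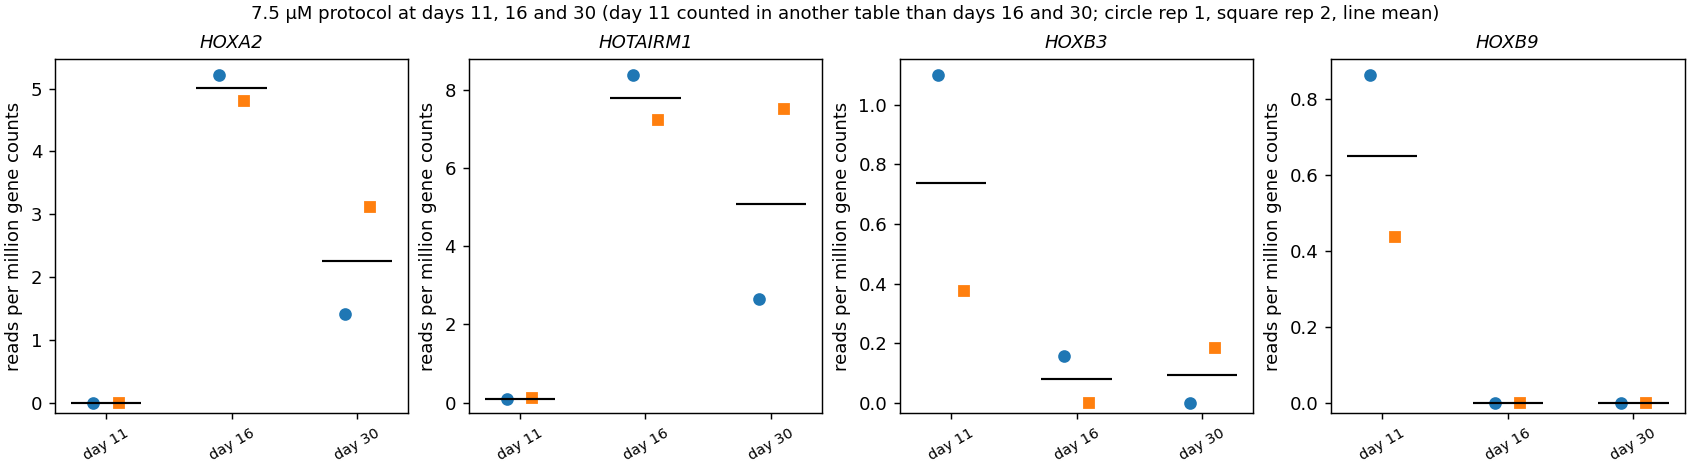
CPM without TMM scaling of HOXA2, HOTAIRM1, HOXB3 and HOXB9 in the 7.5 µM protocol at days 11, 16 and 30, each panel on its own linear scale; circles are replicate 1, squares replicate 2, lines the mean of both. HOXA2 is at 0 at day 11 and at 5.21 and 4.81 at day 16, and HOXB9 has reads only at day 11, which was counted in another table.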

How the data were processed

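RNA-seq libraries of total RNA were read as the authors deposited them, as read counts per gene, with no further normalization. The submitters' processing notes name STAR 2.4.2a, HTSeq 0.5.3, featureCounts 1.4.2, DESeq2 1.12.4 and hg19; which tool made which table, and what strand setting and library kit were used, no source here states. The 5 summary entries of the hPSC and day 11 tables, 37.4% to 44.3% of counts, were left out of library sizes, and 1.0% to 1.3% of reads were ambiguous between genes, where overlapping HOX genes lose reads: 25 of the 39 share exonic bases with another gene. HOX members were matched by symbol, and results for a few genes are not reported here. The members and the gene lists were chosen with earlier results of these data known. Genes with a group mean of at least 0.5 CPM are named with every library's value (HOXB3 and HOXB9), those at 0 by name, and the rest by counts or after their values were seen. edgeR 4.0.16 (R 4.3.3) with TMM, filterByExpr, robust quasi-likelihood fits and Benjamini-Hochberg adjustment at 0.05 gave the tests on all genes. It was checked on simulated counts that held a shared replicate difference and 200 genes changed 4-fold between 0.7 and 7.5 µM. Without the block 0 of the 200 were recovered between 7.5 and 0.7 µM and 34 in the slope. With the block 188 and 190 were recovered, beside 13 and 11 false calls. The simulated replicate difference was the same in every arm, whereas the real arms shared theirs only in part. The changed genes were drawn from all genes kept by the filter, so recovery at the low counts of HOX genes was not tested. In that setting a result of 0 called without the block was weak evidence that no gene differed. The 4 day 11 arms share replicate numbers and deviated together (correlations of 0.66 to 0.87 over 18709 genes in 6 pairs of arms), so the numbers pair these libraries. They do not pair hPSC with day 11 (−0.18 to −0.11). The fit with the replicate block is given beside results it changes. Ratios and limits come from summed counts with 95% exact counting intervals (scipy 1.17.1). DESeq2 1.42.0, no filter and leaving out each library were alternatives.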

Additional observations from a re-analysis of the deposited data

Results flagged for a closer look

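HOXA2 is flagged because it gave reads in the day 16 and day 30 tables, which lie outside the comparisons of the CHIR99021 arms. HOXA2 had 59 counts over the 2 day 16 libraries and 25 over the 2 day 30 libraries, above the limit of 3 counts and against 0 at day 11 in the same protocol.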

How the results depend on the processing

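The fits without the replicate block called 0 HOX genes in the slope and in the 4 comparisons between day 11 arms, and 1 at 7.5 µM against hPSC. With the replicate block the slope called 1 (2 with no filter), 7.5 against 0.7 µM called 2 (2 with no filter), 7.5 against 5 µM called 1 (2 with no filter) and 7.5 µM against hPSC called 3 (4 with no filter, HOXB7 added). Without block and filter the slope called 1 and 7.5 µM against hPSC 3. Leaving out each library without the block gave 0 to 0 calls in the day 11 comparisons and 0 to 2 at 7.5 µM against hPSC. With the block it gave 0 to 2 in the slope, in 7.5 against 0.7 µM and in 7.5 against 5 µM, and 1 to 3 at 7.5 µM against hPSC. When one arm was left with 1 library, that library was assumed to vary like the others. The comparisons of 5 and 3 µM with 0.7 µM and of 0.7 µM with hPSC called 0 in every alternative run. DESeq2 with the replicate block called 0 HOX genes in the slope and in each day 11 comparison, where edgeR with the block called 1 or 2 in 3 of them, and HOXC4 alone at 7.5 µM against hPSC, and it gave no adjusted p to most HOX genes with or without the block. Detected genes at 7.5 µM numbered 3 in the rule used, 5 at 3 counts or more, 0 at 0.5 CPM or more in both libraries and 3 to 4 from 1 library alone. At 3 counts or more 1 gene was detected at 3 µM and 3 at 5 µM. The calls that the block adds among the other gene lists stand beside those lists, and no result reversed. Depth sets the limit for the 28 genes that never exceeded 3 counts, where a level below 0.041 to 0.062 CPM was not detectable. The later fits and their settings, the lower limits from 1 library and the marker sums without T or CDX2 were added after seeing the data.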
